A study of Mus musculus with 6 samples.

Results

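Genes that mark the layers and the projection neurons of the cerebral cortex were followed on 6 Affymetrix mouse expression arrays of cerebral cortex RNA. The 40 listed genes were chosen by name, with earlier results of these data known. Every probe set whose annotation gave one of these symbols and no other was taken. This gave 122 probe sets for 37 genes, of 18194 genes named by 1 symbol on the array. Ctgf stood under its present symbol Ccn2 and Fam84b under Lratd2. Etv1 was named only by 3 probe sets that carry several symbols and was left out, and the names Nr4a2l and Cplx3l matched no probe set. The arrays fell into 2 groups of 3. Of these, 3 carried RNA labelled as double knockout for Egr1 and Egr3, zinc finger transcription factors that neurons induce with activity, and 3 carried RNA labelled wild type. The labels gave no strain, sex, age or allele and did not say whether each array had its own animal. The p-values therefore describe array-to-array spread, which may be technical. The title of double knockout replicate 1 named no genotype, as on the wild type arrays, and its group was taken from its description.

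The cortex is built in layers whose excitatory neurons differ in their targets. Upper layer neurons project mostly within the cortex, whereas deep layer neurons send axons to the thalamus, brainstem and spinal cord, and a small set of transcription factors establishes these identities during development. Many of these factors stay expressed in the adult, where they serve as layer markers. For the comparisons here the genes were grouped by where they are mainly known to act. Of the measured genes, 8 were placed in the upper layers, 14 in the deep layers, 7 among broad regulators of projection neurons and 8 among genes used in several layers. In bulk RNA, fewer cells of a type and less RNA per cell cannot be told apart.

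Egr3 signal was low in the arrays labelled double knockout and Egr1 signal was not. The brighter Egr3 probe set read 339, 370 and 507 in arrays labelled double knockout, against 1189, 2670 and 924 in wild type (limma adjusted p = 0.0361). Egr1 read 2116, 2647 and 2657 in arrays labelled double knockout, against 1247, 2054 and 1430 in wild type, and where its probes lie relative to the targeted part was not given in the sources used here. Median signals per array lay between 36.2 and 39.5 units. Precision is limited by having 3 arrays a group. Double knockout replicate 2 was the only array with high Xist (3140, against at most 42.5 elsewhere) and so carried RNA of a female. The 16 spiked control probe sets of wild type replicate 1 were dim there, at 0.332 to 0.497 times their median elsewhere. The choroid plexus marker Ttr read 9106 in wild type replicate 3 and 1595 in double knockout replicate 1, against 3.91 to 160.0 in the other 4 arrays, on one of its 4 probe sets.

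Among the listed genes, 4 transcriptional regulators rose and 1 fell in the arrays labelled double knockout. Tshz2, Pou3f1, Foxp1 and Lmo4 rose, by 1.20, 1.15, 0.84 and 0.60 on the log2(signal + 16) scale, and Zbtb20 fell by 0.52. Each passed on a single probe set. Of the 96 member probe sets bright enough to be tested, for 35 genes, 4 passed a limma adjusted p of 0.05 as higher and 1 as lower. Among all 22518 tested probe sets 0.426% passed as higher and 0.591% as lower. The other 30 genes did not pass. At an unadjusted limma p under 0.05 stood 29 of the 96 (30.2%), against 16.6% of all tested probe sets. The count of 5 was 3 without double knockout replicate 1, wild type replicate 2 or wild type replicate 3. Without wild type replicate 3 only 2 of the 5 were kept, and Crym was added. The count was 0 without double knockout replicate 2, double knockout replicate 3 or wild type replicate 1. It was also 0 with no filter on dim probe sets and 2 with no intensity trend.

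**Figure D1:**
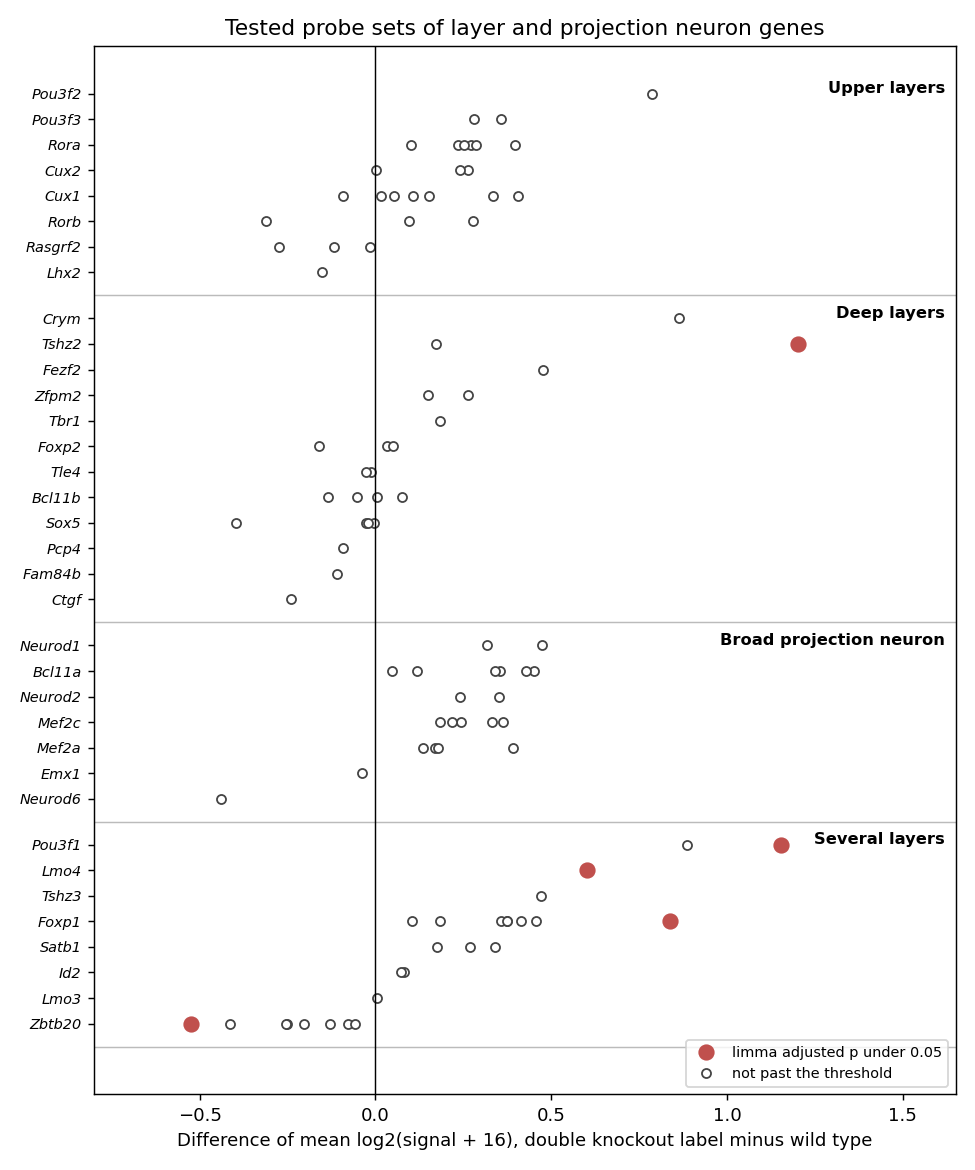
Each circle is 1 tested probe set, placed by the difference of its mean log2(signal + 16) between the 3 arrays labelled double knockout and the 3 wild type arrays, in rows of genes ordered by their median within 4 groups. Filled circles passed a limma adjusted p of 0.05: Tshz2, Pou3f1, Lmo4 and Foxp1 lie to the right of 0 and Zbtb20 to the left.

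Tshz2, a teashirt family zinc finger gene that marks a class of deep layer neurons, differed most. Its bright probe set read 567, 807 and 637 in arrays labelled double knockout, against 261, 364 and 229 in wild type. All 3 arrays labelled double knockout lay above all 3 wild type arrays. The means were 670 ± 124 and 285 ± 70.8 (SD, n = 3 each). On the log2 scale they differed by 1.20, with an SE of 0.18 (limma adjusted p = 0.0160). A dim Tshz2 probe set averaged 82.8 ± 14.3 and 71.7 ± 11.9 and did not pass (log2 0.17, limma adjusted p = 0.667), and another lay below the filter.

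Pou3f1, a POU domain factor found in subsets of projection neurons and in myelinating glia, rose on 1 of its 2 probe sets. That probe set read 293, 488 and 441 in arrays labelled double knockout, against 188, 216 and 120 in wild type. The groups did not overlap, and double knockout replicate 1 lay nearest to the wild type arrays. The groups differed by 1.15 on the log2 scale (SE 0.22, limma adjusted p = 0.0464). The brighter probe set read 294, 534 and 484, against 240.4, 343 and 131 in wild type. Here double knockout replicate 1 lay below wild type replicate 2, and the log2 difference of 0.89 (SE 0.30) did not pass (limma adjusted p = 0.194). Of the oligodendrocyte markers, 17 of 23 tested probe sets were higher and 0 passed limma's test (6, or 26.1%, had an unadjusted p under 0.05, against 16.6% of all tested). Their summed signal was 72900, 61299 and 67867 in arrays labelled double knockout, against 57073, 56256 and 58552 in wild type. Most of that sum came from Mbp probe sets. The median over the 23 probe sets, measured from the wild type mean, overlapped between the groups. It was 0.31, -0.11 and 0.22 in arrays labelled double knockout, against 0.21, -0.02 and -0.21 in wild type. Among the arrays labelled double knockout the summed signal was highest in replicate 1, where Pou3f1 was lowest, and lowest in replicate 2, where it was highest. Among the wild type arrays Pou3f1 was lowest in replicate 3, where the marker median was lowest but the summed signal highest. With 3 arrays a group, such orders cannot show a part of these markers. The part of these markers in the Pou3f1 difference was not tested.

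Foxp1 encodes a forkhead repressor used in the upper and middle layers and in striatal neurons. The probe set that passed read 379, 485 and 410 in arrays labelled double knockout, against 204, 243 and 243 in wild type. No array crossed between the groups, and they differed by 0.84 on the log2 scale (SE 0.13, limma adjusted p = 0.0183). All 8 tested Foxp1 probe sets were higher, by 0.10 to 0.84, and on 5 of them the groups did not overlap. Of all tested probe sets 51.6% were higher, and on 11.5% the groups did not overlap upward. The brightest Foxp1 probe set averaged 1253 ± 111 in arrays labelled double knockout and 976 ± 103 in wild type (SD, n = 3 each). It did not pass (log2 0.36, limma adjusted p = 0.164). The probe sets of 1 gene read the same RNA and are not replicates.

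Lmo4, which encodes a LIM-only adaptor protein of callosal and other projection neurons, was measured by 1 probe set. It read 1958, 2102 and 1652 in arrays labelled double knockout, against 1338, 1187 and 1213 in wild type. All arrays labelled double knockout were brighter than all wild type arrays. The difference was 0.60 on the log2 scale (SE 0.11, limma adjusted p = 0.0442), and the call was lost in every fit that left out 1 array, with adjusted p from 0.0680 to 0.185.

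Zbtb20, a zinc finger repressor that specifies hippocampal neurons and is also made by astrocytes, fell on its brightest probe set. That probe set read 262, 264 and 251 in arrays labelled double knockout, against 365, 373 and 401 in wild type. The groups were far apart relative to the spread within each, and the difference was -0.52 on the log2 scale (SE 0.10, limma adjusted p = 0.0475). All 8 tested probe sets were lower, by 0.06 to 0.52, and 7 of them were brightest among the wild type arrays in wild type replicate 3. The call was lost in every fit that left out 1 array, with adjusted p from 0.0570 to 0.199. Among the hippocampal markers Fibcd1 was also brightest in wild type replicate 3, at 162, against 23.5 to 65.6 in the other 5 arrays. Spink8, below the filter, read 11.0, 25.6 and 3.89 in arrays labelled double knockout, against 65.6, 33.1 and 58.0 in wild type. The markers Dsp, Lct, Prox1 and Iyd lay below the filter on all their probe sets. C1ql2, the other marker of this list that was tested and is no member, went the other way, with 58.5, 64.1 and 30.7 in arrays labelled double knockout, against 53.1, 26.4 and 44.8 in wild type (log2 0.22, limma adjusted p = 0.715). Of the 12 tested probe sets of the hippocampal list 9 were lower, but 8 of these 9 were those of Zbtb20 itself, and Neurod1 gave 2 of the 3 that were higher. Its summed signal, these members included, overlapped (1972 to 2389 in arrays labelled double knockout, 1984 to 2613 in wild type). Among the astrocyte markers Aqp4 fell on 3 probe sets, with means of 495 ± 100.3 and 967 ± 7.67 on the brightest (SD, n = 3 each, limma adjusted p = 0.0139), while 16 of 27 probe sets of that list were lower and 11 higher. The summed astrocyte signal overlapped, at 27603 to 28263 in arrays labelled double knockout and 26230 to 28637 in wild type. The part of either list in the Zbtb20 difference was not tested.

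**Figure D2:**
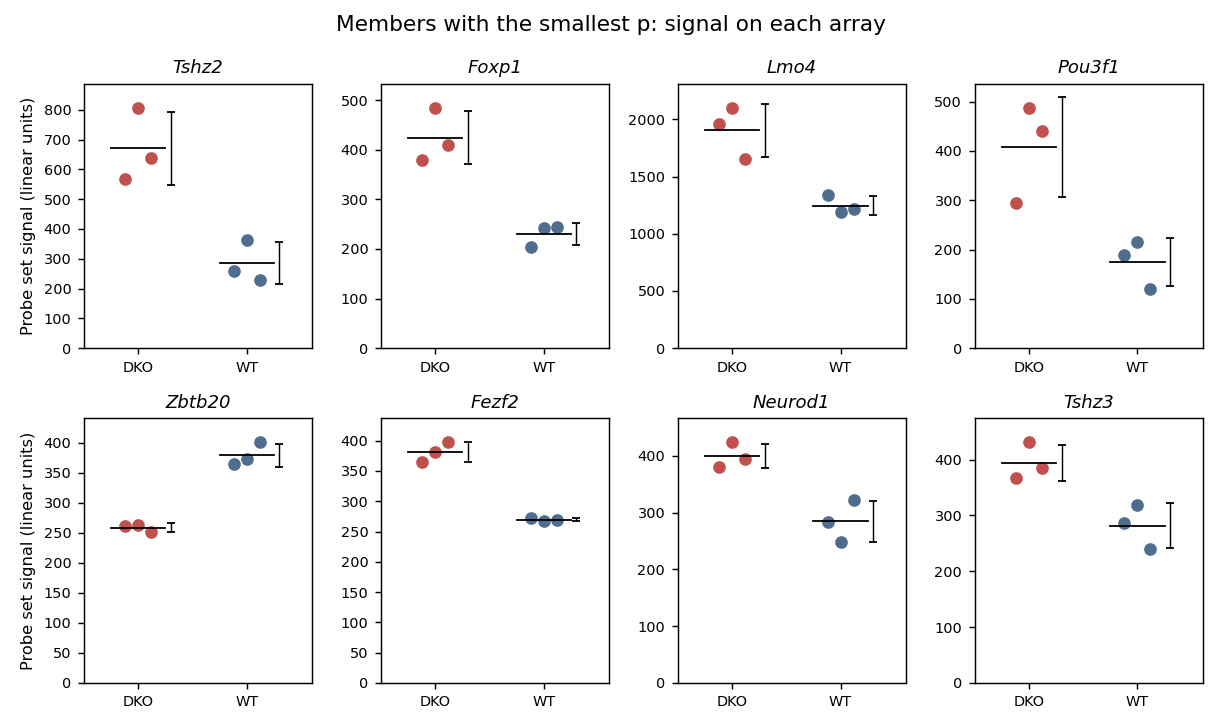
Signals on each array, in linear units, for the 8 members with the smallest p, 1 probe set each: red points are the 3 arrays labelled double knockout (DKO) and blue points the 3 wild type arrays (WT). Horizontal lines are means and error bars are SD. In each panel the groups do not overlap, which picking by small p makes likely, so it adds no support. Of all tested probe sets 11.5% do so upward and 10.7% downward. The brighter Pou3f1 probe set, not drawn, overlaps.

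Because Egr proteins bind a short G-rich motif, the RefSeq promoter windows of the genes (build GRCm38.p6, from 250 bases before to 50 after the start) were searched on both strands for GCGNGGGCG. A window was held for 29 of the 37 measured genes, not for Pou3f1. The motif was in a window of 10 of these 29 genes (34.5%), against 1695 of 27025 genes overall (6.27%). The members' windows were richer in G and C, with a median of 60.3%, against 52.7% in all windows. Among all windows at or above the members' median 16.9% held the motif, against 25.6% of the members' own 43 windows. The windows above that cut had a median of 67%, so these shares are not matched for G and C. A match is a description of letters and no evidence of binding. The stretches below belong to the members that rose and had a window, with Fezf2, which comes next by p, and capitals mark matches. Foxp1 has 1 match, 99 bases before one of its starts (chr6:99028299-99028548, minus strand). Tshz2 has none in its window (chr2:169632259-169632508, plus strand). Zbtb20, which fell, has none in its window either, and its stretch is not shown. Lmo4 has 3 matches just after a start, of which the last 2 overlap (chr3:144205217-144205246, minus strand), and Fezf2 has 1 after its start (chr14:12345816-12345845, minus strand).
Foxp1: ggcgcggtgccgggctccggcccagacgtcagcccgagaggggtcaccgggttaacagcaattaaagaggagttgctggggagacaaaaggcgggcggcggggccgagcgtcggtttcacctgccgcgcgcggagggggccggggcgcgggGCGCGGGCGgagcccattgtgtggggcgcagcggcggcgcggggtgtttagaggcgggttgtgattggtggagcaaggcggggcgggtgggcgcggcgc
Tshz2: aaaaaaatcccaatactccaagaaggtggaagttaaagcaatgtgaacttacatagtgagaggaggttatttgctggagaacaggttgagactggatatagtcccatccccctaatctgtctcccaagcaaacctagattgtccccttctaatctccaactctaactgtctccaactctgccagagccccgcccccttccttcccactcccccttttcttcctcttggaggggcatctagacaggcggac
Lmo4: gaGCGCGGGCGcgGCGGGGGCGGGGGCGcg
Fezf2: aagggaGCGCGGGCGctagttgcctccttt

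Among the deep layer genes Tshz2 alone passed, and 11 of 23 tested probe sets were higher and 12 lower, with a median log2 difference of -0.01. Fezf2, the selector of subcortically projecting neurons, read 366, 381 and 397 in arrays labelled double knockout, against 272, 267 and 269 in wild type. The groups were clear of each other, but the log2 difference of 0.48 (SE 0.10) lay just outside the threshold (limma adjusted p = 0.0586), and it passed with array weights (adjusted p = 0.0496). Fezf2 lies on chromosome 14, as does Egr3. Any part of the shared chromosome in the Fezf2 difference was not tested. Crym, which encodes a thyroid hormone binding protein of deep layers and striatum, read 1170, 1089 and 1425 in arrays labelled double knockout, against 635, 416 and 1100 in wild type. Wild type replicate 3 lay among the arrays labelled double knockout, and the log2 difference of 0.86 (SE 0.28) did not pass (limma adjusted p = 0.170). Of the fits tried, Crym passed only where that array was left out (limma adjusted p = 0.0257). Leaving out the overlapping array makes a smaller p likely, so that fit adds no support. Crym, and likewise Pou3f2, Neurod6 and Mef2a, were chosen for display after their values were seen.

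The other tested deep layer genes differed by -0.24 to 0.18 on their brightest probe sets, and none passed. Bcl11b, which directs axons of subcortical neurons and also marks striatal neurons, averaged 555 ± 6.11 and 566 ± 152 (SD, n = 3 each), with 561, 557 and 549 in arrays labelled double knockout, against 479, 478 and 742 in wild type. On all 4 of its probe sets wild type replicate 3 was the brightest of the 6 arrays. Tbr1, a T-box factor of corticothalamic neurons, read 462, 486 and 491 in arrays labelled double knockout, against 461, 531 and 302 in wild type (log2 0.18, limma adjusted p = 0.650). Foxp2, a forkhead factor of the same neurons, read 183, 119 and 134 in arrays labelled double knockout, against 110, 184 and 127 in wild type (log2 0.05, limma adjusted p = 0.935). Both genes overlapped between the groups. Sox5 was lower on all 4 tested probe sets. On a dim one, at log2 -0.40, the groups did not overlap (limma adjusted p = 0.310), as on 10.7% of all tested probe sets downward. The corepressor gene Tle4 (log2 -0.03 on its brightest probe set), the Purkinje cell protein gene Pcp4 (-0.09), Sox5 (-0.01), Zfpm2 (0.15), Fam84b (-0.11) and Ctgf, a matricellular protein gene of the deepest cells (-0.24), did not pass. Otx1 and Nxph4 lay below the filter, with means of 40.1 ± 6.77 and 26.5 ± 11.3 for Otx1 and 21.1 ± 17.3 and 20.7 ± 5.91 for Nxph4 (arrays labelled double knockout, then wild type; SD, n = 3 each).

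No upper layer gene passed: of 26 tested probe sets 20 were higher and 6 lower, with a median log2 difference of 0.19 (4, or 15.4%, had an unadjusted limma p under 0.05, a share near the 16.6% of all tested probe sets). Cux2, a homeodomain factor of upper layer neurons, read 754, 737 and 747 in arrays labelled double knockout, against 591, 846 and 472 in wild type. The arrays labelled double knockout fell between the wild type arrays, and the difference was 0.26 on the log2 scale (SE 0.18, limma adjusted p = 0.485). Rorb, a nuclear receptor of the thalamus-recipient layer, read 210, 230 and 186 in arrays labelled double knockout, against 163, 631 and 169 in wild type, on its brightest probe set. The value of 631, in wild type replicate 2, stood alone. The log2 difference was -0.31 on this probe set (limma adjusted p = 0.747) and 0.09 and 0.28 on the other 2. Pou3f2, a POU factor of upper layer neurons, differed most in this group: 96.3, 113 and 106 in arrays labelled double knockout, against 57.6, 86.8 and 29.4 in wild type (log2 0.79, SE 0.26, limma adjusted p = 0.178). Its groups did not overlap, though 2 further probe sets were too dim to test.

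Pou3f3, a close relative, averaged 873 ± 13.7 and 690 ± 163 (SD, n = 3 each, log2 0.36, limma adjusted p = 0.270), so that all 3 POU genes listed were higher without passing except for 1 probe set of Pou3f1. Cux1, the paralogue of Cux2, was higher on 6 of 7 probe sets, by up to 0.41. Rora, a nuclear receptor related to Rorb, was higher on all 6, by 0.10 to 0.40. Rasgrf2, an exchange factor for Ras of upper neurons, was lower on all 3 (-0.27 to -0.02), and Lhx2, a LIM homeodomain factor, differed by -0.15. None of these passed.

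**Figure D3:**
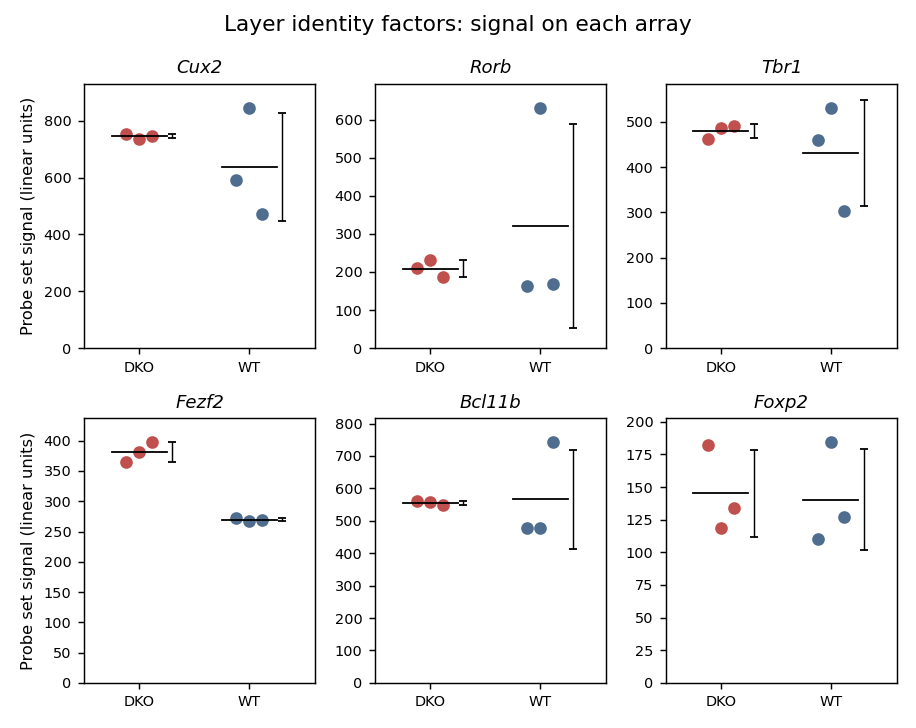
Signals on each array, in linear units, of 6 layer identity factors on their brightest tested probe sets, with the 3 arrays labelled double knockout (DKO, red) left of the 3 wild type arrays (WT, blue). Lines are means and error bars SD; only Fezf2 separates the groups, and for Rorb and Bcl11b 1 wild type array stands above the other 5.

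Broad regulators of projection neurons did not pass either, though 19 of their 21 tested probe sets were higher, with a median log2 difference of 0.24 (9, or 42.9%, had an unadjusted limma p under 0.05, against 16.6% of all tested probe sets). Neurod1, a basic helix-loop-helix differentiation factor, read 381, 424 and 395 in arrays labelled double knockout, against 284, 248 and 322 in wild type. Its groups did not overlap, and the difference was 0.47 on the log2 scale (SE 0.12, limma adjusted p = 0.1001). Neurod6, a later factor of the same family, went the other way. It read 317, 299.6 and 342 in arrays labelled double knockout, against 436, 524 and 369 in wild type (log2 -0.44, SE 0.13, limma adjusted p = 0.154), again with no overlap. Neurod2 differed by 0.24 on its brighter probe set and 0.35 on the other.

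Bcl11a, a zinc finger factor that opposes Bcl11b in deciding between projection classes, was higher on all 6 probe sets. The brightest averaged 1197 ± 171 in arrays labelled double knockout and 870 ± 105 in wild type (SD, n = 3 each, log2 0.45, limma adjusted p = 0.138). The MADS box factors Mef2a and Mef2c, which regulate synapse number with activity, were higher on all 4 and all 5 probe sets, by 0.13 to 0.39 and 0.18 to 0.36. Mef2a's brightest probe set read 991, 1158 and 998 in arrays labelled double knockout, against 716, 880 and 793 in wild type (limma adjusted p = 0.133). Emx1, a homeobox gene of the cortical excitatory lineage, was the other exception and differed by -0.04.

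The remaining genes used in several layers were Tshz3, Satb1, Id2 and Lmo3. Tshz3, a relative of Tshz2, read 368, 431 and 384 in arrays labelled double knockout, against 287, 318 and 239 in wild type (log2 0.47, SE 0.13, limma adjusted p = 0.121). The groups were separate but the difference missed the threshold. Satb1, a chromatin organiser of projection neurons and interneurons, was higher on all 3 tested probe sets, by 0.18 to 0.34. Id2, an inhibitor of basic helix-loop-helix factors, differed by 0.07 on its brightest probe set and Lmo3, a relative of Lmo4, by 0.01.

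Across the list 68 of 96 tested probe sets were higher (70.8%) and 28 lower, against 51.6% higher among all tested probe sets. The median log2 difference was 0.17, against 0.01 for all tested. By gene, the median was above 0 for 24 of 35 and below 0 for 11. The groups did not overlap upward on 20 of the 96 probe sets (20.8%) and downward on 5 (5.21%), where 11.5% and 10.7% of all tested probe sets did so. Foxp1 gave 5 of the 20 and Bcl11a 4, and probe sets of 1 gene are not independent. Of the 14 genes with at least 3 tested probe sets, 7 were higher on all of them and 3 lower on all of them. These shares get no test, because the members were chosen with earlier results of these data known.

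Upper layer genes stood 0.20 above deep layer genes in the difference of their medians, 0.19 against -0.01, which gets no test because the members were chosen with results known. On single arrays, measured from the wild type mean, upper minus deep was 0.09, 0.30 and 0.12 in arrays labelled double knockout, against 0.02, 0.20 and -0.25 in wild type. Wild type replicate 2 thus lay among the arrays labelled double knockout and wild type replicate 3 far below. Without wild type replicate 3 the difference was 0.05, without double knockout replicate 2 it was 0.10, and with the brightest probe set of each gene it was 0.11. The layer genes not on the list had the opposite order, with medians of -0.01 for upper and 0.09 for deep genes.

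**Figure D4:**
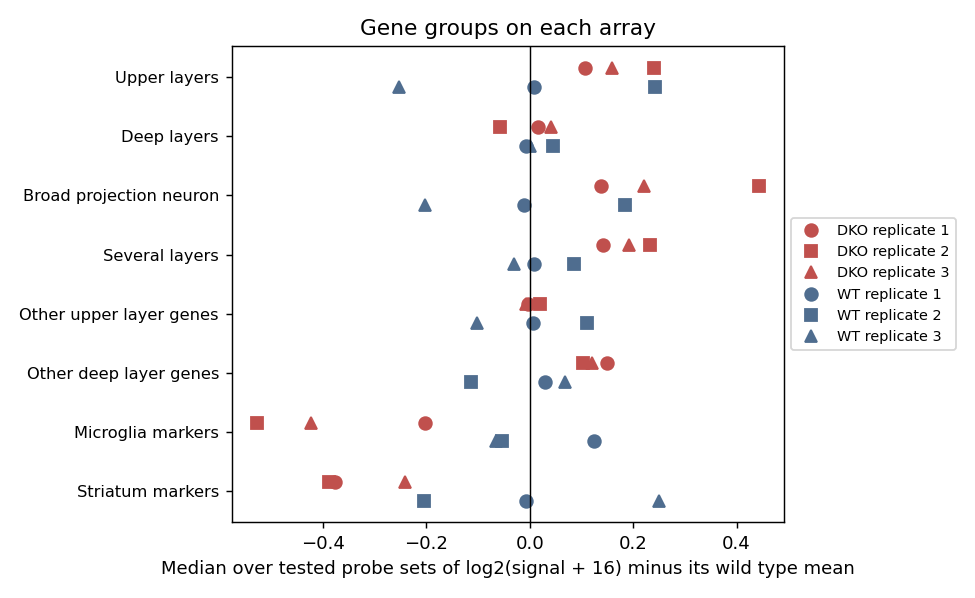
Each point is 1 array, and its position is the median over the tested probe sets of a gene group of log2(signal + 16) minus the wild type mean; red is double knockout label (DKO) and blue wild type (WT). Upper and broad genes are low in wild type replicate 3, at -0.25 and -0.20. All arrays labelled double knockout lie on one side of wild type for genes used in several layers and other deep layer genes. The same holds for the microglia and striatum markers, the latter on only 5 tested probe sets, of which 2 were higher. These are the only marker lists drawn. The array medians of all other marker lists overlapped between the groups.

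The wild type arrays differed more among themselves than the arrays labelled double knockout for 66 of 96 member probe sets (68.8%), against 59.8% of all tested. In the upper layer genes this held for 21 of 26, with a median SD of 0.17 in arrays labelled double knockout and 0.32 in wild type on the log2 scale. Wild type replicate 3 was the dimmest wild type array on 48 of the 96 probe sets (50%), against 33.8% of all tested. It was dimmest on all tested probe sets of Bcl11a, Satb1, Pou3f1 and Pou3f3, but brightest of the wild type arrays for Bcl11b, Crym, Lmo3, Lhx2 and Neurod1. Wild type replicate 2 was the brightest wild type array on 56 of the 96.

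Markers of other cells and regions were read beside these values. The markers and other layer genes named with values that did not pass, here and elsewhere, were chosen after their values were seen. Microglia markers were lower on all 12 tested probe sets, with summed signals of 3424 to 4217 in arrays labelled double knockout and 4387 to 5213 in wild type, and 0 passed limma's test (7, or 58.3%, had an unadjusted p under 0.05, against 16.6% of all tested). Of the striatal markers, 3 of 5 tested probe sets were lower and 2 were higher, by up to 0.38 on the log2 scale. Their sums overlapped, at 926 to 1082 in arrays labelled double knockout and 1026 to 1663 in wild type. Penk read 703 in wild type replicate 3 and 724 in wild type replicate 1, against 178 to 285 in the other 4 arrays, and Drd2, Six3 and Isl1 lay below the filter. Choroid plexus probe sets summed to 37949 in wild type replicate 3 and 11758 in double knockout replicate 1, and to at most 1074 in the other arrays, and all 7 tested were lower on average. Thalamic markers were higher on 7 of 10 (sums 949 to 1100 and 975 to 1209, labelled double knockout and then wild type) and endothelial markers on 9 of 13 (2711 to 3471 and 2141 to 2883). Interneuron markers were higher on 5 of 12 (9784 to 10072 and 9738 to 10234), among which Vip rose (limma adjusted p = 0.0453). The part of these cells and regions in the layer gene differences was not tested.

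Other genes of the same layers, not on the list, showed no change past the threshold. Of 136 tested probe sets for 66 genes 76 were higher and 60 lower, with a median log2 difference of 0.03. None passed in limma (34, or 25.0%, had an unadjusted p under 0.05, against 16.6% of all tested). The count became 1 without double knockout replicate 1 (Nectin3, lower), 3 without wild type replicate 2 (Deptor and Slc17a7, higher, and Nnat, lower) and 1 without wild type replicate 3 (Stard8, lower). By layer, 27 of 43 probe sets of other deep genes were higher (median 0.09), 18 of 38 of other upper genes (median -0.01) and 31 of 55 of other projection neuron genes (median 0.03). Slc17a7, the vesicular glutamate transporter of cortical excitatory neurons, read 1494, 1775 and 1709 in arrays labelled double knockout, against 870, 1775 and 789 in wild type (log2 0.62, SE 0.25, limma adjusted p = 0.252). Its level in wild type replicate 2 matched the arrays labelled double knockout. The other 2 wild type arrays lay well below. Cplx3, a complexin of the deepest layer, differed by -0.28, and Nr4a2, a nuclear receptor of the same cells, by -0.32 on its brightest probe set. Both overlapped between the groups, and on that Nr4a2 probe set double knockout replicate 2 was lowest, at 327 against 664 to 1159 in the other 5 arrays.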

How the data were processed

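The deposited values are probe set intensity signals on a linear scale that the authors had summarised per probe set and scaled, each array having the same trimmed mean of 150.0. The software and build are not given in the sources used here. The table held 45037 probe sets besides 64 controls, and 0 pairs of arrays held identical values. Signals under 1 (4.35%) were set to 1 and log2(signal + 16) was taken, which understates changes of dim probe sets. Probe sets with a mean above the median of all went into a limma 3.58.1 model (R 4.3.3, group as the only term, intensity trend) over the whole table, with Benjamini-Hochberg adjustment. A positive difference means higher in the arrays labelled double knockout. Figures used matplotlib 3.10.9.

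Members, layer groups and marker lists (astrocyte, oligodendrocyte, microglia, endothelial, interneuron, choroid plexus, hippocampus, striatum, thalamus) were chosen with earlier results of these data known. Array values are given for members past the threshold, the next by p up to 8, and 6 layer factors; those of Crym, Pou3f2, Neurod6 and Mef2a were added after their values were seen. Tested on simulated data of this comparison with 22518 probe sets, limma recovered 5.6% of changes of 0.5 on the log2 scale and 71.2% of changes of 1. Alternatives covered the pseudocount, normalization, filter, variance prior, array weights, replicate block and arrays left out.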

Additional observations from a re-analysis of the deposited data

How the results depend on the processing

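The number of member probe sets past the threshold was 5. It was 3 with arrays shifted to a common median, 0 with no filter, 2 with no intensity trend and 0 when wild type replicate 1 was left out together with double knockout replicate 2, and it lay between 0 and 3 when 1 array was left out. It stayed at 4 or 5 with either other pseudocount, quantile normalization, the stricter filter, a robust trend or array weights. With array weights 4 of the 5 were kept, as Fezf2 passed and Lmo4 did not. Of 17 alternatives Tshz2 and Foxp1 each kept the call in 12, Pou3f1 in 9, and Lmo4 and Zbtb20 in 5, with 0 reversals. The adjusted p ranged from 0.00381 to 0.218 for Tshz2, 0.0120 to 0.191 for Foxp1, 0.0293 to 0.277 for Pou3f1, 0.0329 to 0.244 for Lmo4 and 0.0357 to 0.248 for Zbtb20. Other layer genes had 0 to 3 calls when 1 array was left out and 0 otherwise. For the members, upper minus deep kept its sign, from 0.05 to 0.28, as did their median, from 0.08 to 0.27. Layer genes not on the list had the opposite order in the main fit. The groups share only replicate numbers: deviations of same-numbered arrays correlated at -0.15, 0.001 and -0.10. With the number as a replicate block the count was 3. The cause of these shifts was not tested. With 3 arrays a group, changes well under 1 on the log2 scale are mostly missed.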
